A study of Sus scrofa with 6 samples.

Results

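Imprinted genes are transcribed mainly from the copy inherited from 1 parent, and 10 of them were followed here through the reprogramming of pig fibroblasts: NDN, DIRAS3, PHLDA2, CDKN1C, PEG3, PEG10, MEST, IGF2, DLK1 and PLAGL1. They were chosen by name, and all 10 were found among the 18007 genes of the table of FPKM values (fragments scaled to the length of the gene and to the depth of the library). Of these, 8 carry the symbol in the table. CDKN1C (ENSSSCG00000040461) was named from a table of pig gene identifiers, and IGF2 (ENSSSCG00000035293) from its description and its position.

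The PEFs (porcine embryonic fibroblasts) PEF5, PEF7 and PEF8 were grown from the ear tips of embryos at day 90 of a cross between a Large White boar and a Meishan sow. piPSC5, piPSC7 and piPSC8 are porcine induced pluripotent stem cells, each derived from its like-numbered PEF line with Oct4, Sox2, Klf4 and c-Myc from doxycycline-dependent lentiviruses, and their colonies were moved onto feeder cells prepared from C57BL/6J mouse embryos. Each line gave 1 poly-A RNA-seq library, so each group holds 3 libraries, and p-values measure the spread between lines of 1 cross. Whether a piPSC line is 1 clone is not given in the sources used here. Whether fragments from the mouse feeder cells were counted in the piPSC libraries was not tested.

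In textbook accounts, the parental alleles are told apart by DNA methylation set in the egg or the sperm. This methylation is kept through cell division by DNMT1 with UHRF1. In the early embryo it is also kept by the zinc finger protein ZFP57 with TRIM28 and SETDB1. Several imprinted genes lie in clusters, which share a control region. PHLDA2 and CDKN1C are known as maternally expressed genes, and the other members as paternally expressed. FPKM values add the alleles together, so neither parent's share can be read from them. In these bulk libraries fewer cells that transcribe a gene cannot be told apart from less RNA per cell. The paper reports parental allele bias from RNA-seq of these lines, and their DNA methylation from bisulfite sequencing. Neither was analysed here.

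The libraries held 11010629 to 17836510 fragments. The 7 fibroblast markers all fell after reprogramming, and their summed level was 4245 to 6041 FPKM in PEFs against 128 to 213 in piPSCs. Of the 7 pluripotency markers, 5 were found by name and 2 were expressed enough to test. SOX2 was at no more than 0.0208 FPKM in PEFs and at 3.01, 2.49 and 0.129 FPKM in piPSC5, piPSC7 and piPSC8, so that piPSC8 stood apart with 9 fragments. Its difference of 1.31 on the log2 scale did not pass (limma adjusted p = 0.0626), and without piPSC8 it was 1.89 and passed (limma adjusted p = 0.00257). Sox2 was also delivered by the lentiviruses, and whether fragments of that copy were counted at SOX2 was not tested. LIN28B was at no more than 0.0367 FPKM in PEFs and at 2.51, 0.281 and 8.90 FPKM in piPSC5, piPSC7 and piPSC8. Its difference was 1.80 over the 3 lines (limma adjusted p = 0.0667) and 1.06 without piPSC8 (limma adjusted p = 0.0995). POU5F1 and LIN28A were not found by name and were not analysed here. The study describes the 3 lines as male, but DDX3Y, a Y-linked gene, had 3439 fragments in PEF8, 4207 in piPSC8 and 0 in all libraries of lines 5 and 7. By this gene, lines 5 and 7 are the ones at odds with the stated sex. Line 8 differs from both of them, so results that turn on it are given with and without it.

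The 250 bases before the start of the gene in the table are printed for the 4 genes on which the results turn: PHLDA2 and CDKN1C, which lost most of their RNA in every line, and NDN and DIRAS3, whose direction differed between lines. They were read from the Sscrofa11.1 genome of RefSeq, 5′ to 3′ on the strand of the gene, with each CG, the dinucleotide at which DNA is methylated, in capitals.
PHLDA2, chr2:2058695-2058944, minus strand: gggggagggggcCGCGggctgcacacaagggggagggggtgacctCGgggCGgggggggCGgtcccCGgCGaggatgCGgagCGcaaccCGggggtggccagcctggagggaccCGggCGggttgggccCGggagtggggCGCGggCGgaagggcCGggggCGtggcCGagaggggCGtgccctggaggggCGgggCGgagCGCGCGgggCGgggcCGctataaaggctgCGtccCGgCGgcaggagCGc
CDKN1C, chr2:2022083-2022332, minus strand: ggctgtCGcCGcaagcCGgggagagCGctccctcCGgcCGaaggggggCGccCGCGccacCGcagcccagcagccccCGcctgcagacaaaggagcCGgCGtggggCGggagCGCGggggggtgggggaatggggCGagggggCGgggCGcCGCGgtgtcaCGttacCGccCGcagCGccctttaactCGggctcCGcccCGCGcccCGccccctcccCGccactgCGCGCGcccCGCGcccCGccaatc
NDN, chr1:142412315-142412564, plus strand: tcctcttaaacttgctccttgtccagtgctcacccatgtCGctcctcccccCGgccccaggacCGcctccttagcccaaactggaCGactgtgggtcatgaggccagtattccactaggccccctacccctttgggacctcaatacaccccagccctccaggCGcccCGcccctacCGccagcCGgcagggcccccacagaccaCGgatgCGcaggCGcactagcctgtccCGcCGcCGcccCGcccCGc
DIRAS3, chr6:144576115-144576364, plus strand: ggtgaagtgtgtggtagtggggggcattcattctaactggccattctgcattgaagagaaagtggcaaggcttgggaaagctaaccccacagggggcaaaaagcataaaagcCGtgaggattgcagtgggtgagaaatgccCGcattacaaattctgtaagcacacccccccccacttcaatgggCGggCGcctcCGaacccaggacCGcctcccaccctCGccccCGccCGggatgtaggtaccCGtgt

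The PHLDA2 window holds 31 CG and the CDKN1C window 37, above the upper quartile of 22 for the same window at 16995 protein-coding genes, whose median is 12. The NDN window holds 16 and the DIRAS3 window 10, both between the quartiles of 5 and 22. The hexamer TGCCGC, known as the core of the ZFP57 binding site, was searched on both strands and contains a CG itself. It occurs 1 time in the windows of PHLDA2, MEST and DLK1, in none of the other members' windows, and in 14.3% of those at all protein-coding genes. The RefSeq start of the gene lies inside the last bases of the CDKN1C and DIRAS3 windows and downstream of those of PHLDA2 and NDN. The MEST and PLAGL1 windows lie inside the RefSeq genes, past their RefSeq starts. A match of letters is a description only, since neither methylation nor binding was measured in these libraries.

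Of the 8 members expressed enough to test, 2 fell after reprogramming and 0 rose by limma, with 2 lower and 2 higher (MEST and PLAGL1) at an unadjusted p under 0.05. Calls required an adjusted p under 0.05 together with a change of 2-fold or more on the scale of log2(FPKM + 1). By that rule 16.7% of all 12428 genes tested were called lower and 20.2% higher, so the 2 of 8 called lower stand near the background for so few genes. voom on the recovered fragments called 1 member higher (MEST), and limma without piPSC8 called 3 higher (NDN, DIRAS3 and MEST). The median log2 difference was 0.25 over the 8 tested members and 0.20 over all genes tested, and after each library was rescaled to the median ratio over genes these became -0.01 and -0.01.

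**Figure D1:**
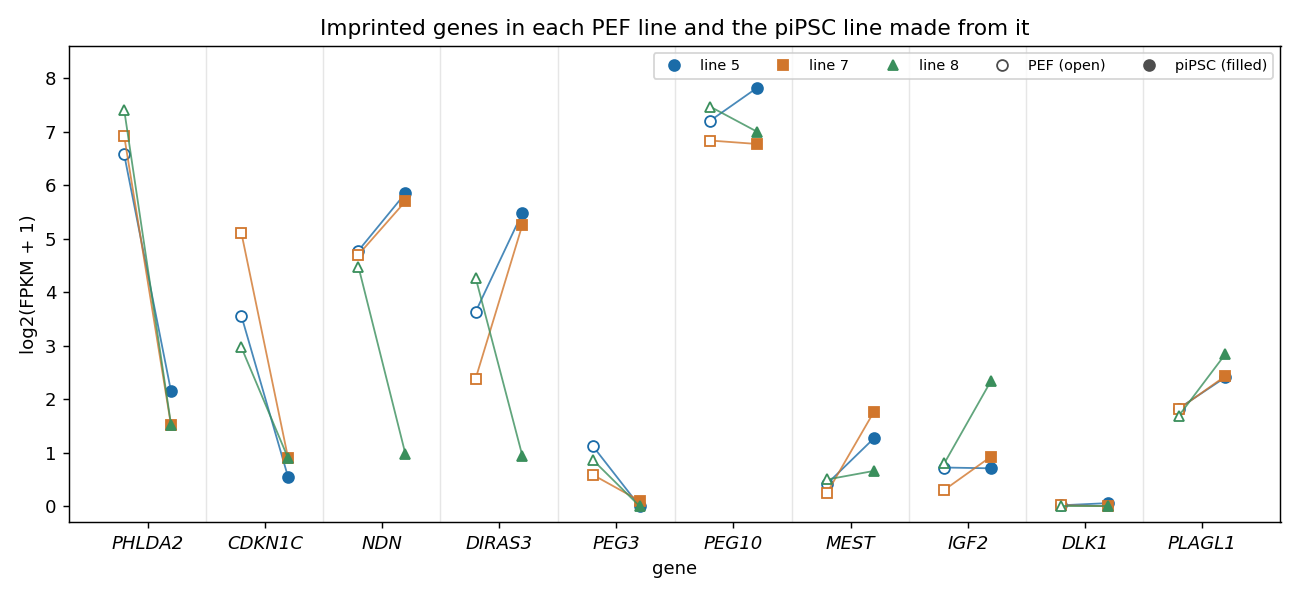
Level of each of the 10 genes as log2(FPKM + 1) on the y axis, with open symbols for PEF libraries, filled symbols for piPSC libraries and a line joining the libraries of the same number. All 3 PHLDA2 and all 3 CDKN1C lines slope down, while NDN and DIRAS3 slope up in lines 5 and 7 and down in line 8.

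Among the tested members, PHLDA2 and CDKN1C, the maternally expressed pair, were those called lower. PEG3, too low for the test, was also lower in every piPSC line and is given further below. PHLDA2 encodes a small pleckstrin-homology protein that is known to restrain growth of the placenta. It lies at chr2:2057680-2058694 on the minus strand. Its level was 94.2, 120 and 169 FPKM in PEF5, PEF7 and PEF8, and 3.43, 1.85 and 1.88 FPKM in piPSC5, piPSC7 and piPSC8. Every piPSC library was far under every PEF library, and the gene went from the level of the most abundant members to that of the weakly expressed ones. The level was 27.4-fold lower in line 5, 64.7-fold lower in line 7 and 90.1-fold lower in line 8. The difference of -5.24 ± 0.28 (SE) on the log2 scale was larger than the spread between lines (limma adjusted p = 0.000145, n = 3 against 3). PHLDA2 overlaps SLC22A18, on the other strand, by 332 bp, and that gene was listed at no more than 0.378 FPKM in any library.

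CDKN1C encodes p57, an inhibitor of cyclin-dependent kinases that is known to hold back the cell cycle. It lies at chr2:2018910-2022082 on the minus strand, 35598 bp before PHLDA2. Its level was 10.8, 33.6 and 6.84 FPKM in PEF5, PEF7 and PEF8, and 0.452, 0.858 and 0.858 FPKM in piPSC5, piPSC7 and piPSC8. The groups did not overlap, and the PEF lines were further apart than the piPSC lines. The piPSC lines held 18, 27 and 25 fragments of the gene. The level was 24.0-fold lower in line 5, 39.1-fold lower in line 7 and 7.97-fold lower in line 8 (exact 95% interval of the line 8 ratio 0.0798 to 0.189, which covers counting error only). The fitted difference was -3.11 ± 0.53 (SE) on the log2 scale (limma adjusted p = 0.00388). It was -2.49 without PEF7, the library with the highest level (limma adjusted p = 0.00350), so the size rests in part on that library while the call does not.

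The neighbours of this pair on chromosome 2 did not all move with it. NAP1L4, a histone chaperone, lies 9176 bp past PHLDA2 and rose by 1.21 ± 0.18 (SE) on the log2 scale (limma adjusted p = 0.00230). CARS, a transfer RNA synthetase further along, rose by 1.46 ± 0.48 (SE) (limma adjusted p = 0.0422). OSBPL5, a lipid transfer protein beyond CARS, fell by 2.05 on the log2 scale, from a mean of 13.4 FPKM in PEFs to 2.51 FPKM in piPSCs (limma adjusted p = 0.00179). On the other side, TSSC4, the nearest tested gene to CDKN1C, was at 11.7 to 15.0 FPKM in PEFs and 15.9 to 16.9 FPKM in piPSCs (limma adjusted p = 0.148). CD81, a tetraspanin, was at 96.3 to 190 FPKM in PEFs and 67.8 to 76.6 FPKM in piPSCs, a significant difference under 2-fold (limma adjusted p = 0.0214). KCNQ1, whose intron carries the control region of this domain in other mammals, had at most 10 fragments in any library. The 2 short features listed for its antisense transcript KCNQ1OT1 had at most 8 and 1 fragments.

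IGF2, a fetal growth factor expressed from the paternal copy, lies in the same cluster at chr2:1469104-1496346 on the minus strand. Its level was 0.650, 0.234 and 0.741 FPKM in PEF5, PEF7 and PEF8, and 0.633, 0.903 and 4.08 FPKM in piPSC5, piPSC7 and piPSC8. piPSC7 and piPSC8 were above every PEF library, piPSC8 with 368 fragments against 92 in PEF8, while piPSC5 lay within the PEF range. The ratio of piPSC to PEF was 0.973 in line 5, with an exact 95% interval from 0.712 to 1.33, then 3.86 in line 7 and 5.50 in line 8. The difference over the 3 lines was 0.72 ± 0.46 (SE) on the log2 scale and did not pass (limma adjusted p = 0.228), and without piPSC8 it was 0.21 (limma adjusted p = 0.540).

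The nearest tested feature to IGF2 on 1 side was H19_2, a 68 bp feature at 84991 bp that the table names after H19, the maternally expressed non-coding RNA paired with IGF2. It had 0, 0 and 1 fragments in PEF5, PEF7 and PEF8, and 113, 171 and 735 fragments in piPSC5, piPSC7 and piPSC8. All PEF libraries were at or under the floor of 3 fragments, and the difference passed the test (limma adjusted p = 0.000640). FPKM values of so short a feature are large for few fragments (982 FPKM in piPSC8), so fragments are given. Any share of mouse feeder cells in the fragments of this feature or of IGF2 was not tested. TSPAN32, the nearest tested gene on the other side, was at 0.583 to 0.803 FPKM in PEFs and 0.364 to 0.448 FPKM in piPSCs (limma adjusted p = 0.333).

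The direction of NDN and DIRAS3 depended on the line, as did that of PEG10, with smaller changes that are given below. NDN encodes necdin, a MAGE-family protein of the Prader-Willi region that is known for its part in neurons and in growth arrest. It lies at chr1:142412565-142414242 on the plus strand. Its level was 26.4, 25.0 and 21.2 FPKM in PEF5, PEF7 and PEF8, and 56.5, 50.8 and 0.974 FPKM in piPSC5, piPSC7 and piPSC8. The PEF lines were close together, piPSC5 and piPSC7 were above all of them, and piPSC8 was far under all of them with 18 fragments. The ratio of piPSC to PEF was 2.14 in line 5 (exact 95% interval 1.96 to 2.33) and 2.03 in line 7 (exact 95% interval 1.85 to 2.24). In line 8 it was 0.0459, or 21.8-fold lower (exact 95% interval of the ratio 0.0270 to 0.0733). Over the 3 lines the difference was -0.48 ± 1.25 (SE) on the log2 scale and did not pass (limma adjusted p = 0.763). Without piPSC8 it was 1.12 (limma adjusted p = 0.00571), and without both libraries of line 8 it was 1.03 (limma adjusted p = 0.0124).

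MAGEL2, the nearest tested gene to NDN, starts 34447 bp past it on the same strand and encodes another MAGE-family protein. After reprogramming it fell by 2.35 on the log2 scale (limma adjusted p = 0.000898). Its fragments were 487, 310 and 228 in PEF5, PEF7 and PEF8, and 17, 1 and 0 in piPSC5, piPSC7 and piPSC8. It was low in every piPSC line, including lines 5 and 7, in which NDN was above its PEF level. UBE3A, a ubiquitin ligase expressed from the maternal copy in neurons, is the nearest tested gene on the other side. Its level was 11.3 to 13.0 FPKM in PEFs and 13.5 to 19.7 FPKM in piPSCs (limma adjusted p = 0.0681). ATP10A, further out, was at 1.40 to 2.93 FPKM in PEFs and 0.466 to 1.05 FPKM in piPSCs (limma adjusted p = 0.0572). MKRN3 had at most 6 fragments in any library and was not tested.

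DIRAS3 encodes a small GTPase of the RAS family known to slow cell growth. It lies at chr6:144576365-144578816 on the plus strand. Its level was 11.4, 4.22 and 18.3 FPKM in PEF5, PEF7 and PEF8, and 43.8, 37.4 and 0.908 FPKM in piPSC5, piPSC7 and piPSC8. PEF8 had the highest level of the PEF lines, and piPSC8 the lowest of all 6 libraries, with 17 fragments. The ratio of piPSC to PEF was 3.84 in line 5 (exact 95% interval 3.40 to 4.34) and 8.87 in line 7 (exact 95% interval 7.30 to 10.8). In line 8 the ratio was 0.0498, or 20.1-fold lower (exact 95% interval 0.0287 to 0.0805). Over the 3 lines the difference was 0.47 ± 1.24 (SE) on the log2 scale (limma adjusted p = 0.766). It was 1.95 without piPSC8 (limma adjusted p = 0.0301) and 2.37 without both libraries of line 8 (limma adjusted p = 0.0135), and it turned negative when PEF7, piPSC5 or piPSC7 was left out.

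The genes on either side of DIRAS3 moved 1 way in all lines. WLS, which carries Wnt proteins to the cell surface, lies 43473 bp before it and fell by 2.71 on the log2 scale, from 71.1 to 135 FPKM in PEFs to 10.4 to 17.9 FPKM in piPSCs (limma adjusted p = 0.000868). GNG12, a G protein subunit 203503 bp after it that was named by its identifier, fell by 1.21 on the log2 scale (limma adjusted p = 0.00523). Neither gene showed the split between line 8 and the other lines.

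NDN and DIRAS3 lie on different chromosomes. A ratio of (FPKM + 1) at least 2-fold lower in line 8 and at least 1.5-fold higher in lines 5 and 7 was found for 62 of the 12428 genes tested (0.499%), NDN and DIRAS3 among them. This rule was set after their values were seen, so it only says how many other genes have the same course. No library of another piPSC8 culture was analysed here, so the difference between lines has no replicate. SOX2 was also lowest in piPSC8 among the piPSC lines (0.129 FPKM against 3.01 and 2.49). Neither its part in the split nor any share of the lentiviral Sox2 in these values was tested. The Y-linked DDX3Y had 3439 fragments in PEF8, 4207 in piPSC8 and 0 in the libraries of lines 5 and 7. The part of this difference between lines in the split was not tested either.

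**Figure D2:**
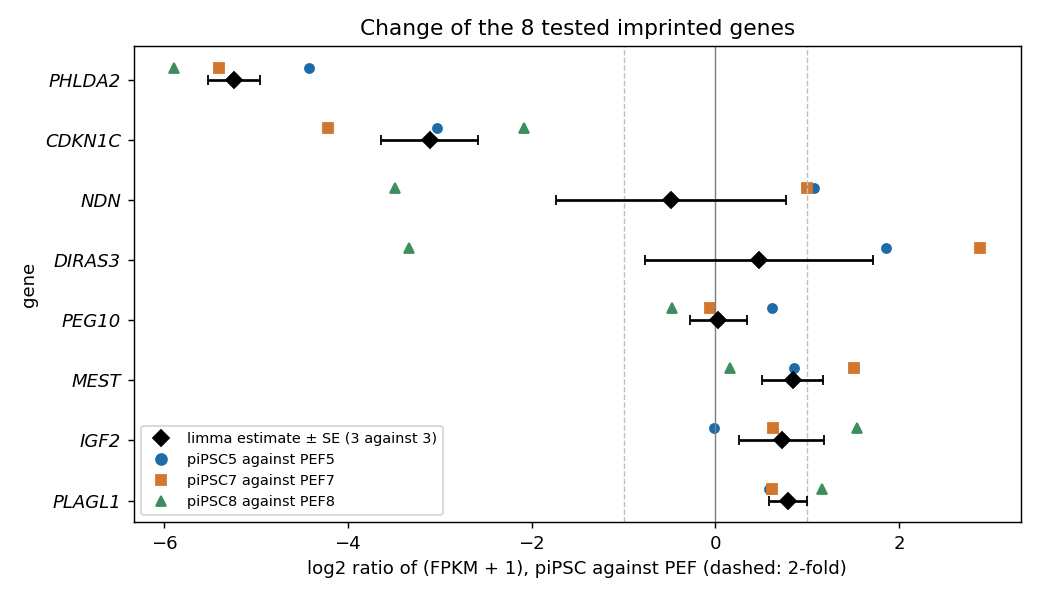
Difference between piPSCs and PEFs of the 8 tested genes on the x axis, as the log2 ratio of (FPKM + 1). Diamonds with bars are the limma estimates ± SE over 3 against 3 libraries, coloured symbols the ratio within each line, and dashed lines mark 2-fold. The bars of NDN and DIRAS3 (SE 1.25 and 1.24) cross 0, and the line 8 symbol lies left of 0 for both.

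PEG10 had the highest mean level of the members in either group, although its PEF range overlapped that of PHLDA2, which was above it in PEF7. It encodes a protein derived from a retrotransposon and is needed for the placenta. It lies at chr9:74474091-74486980 on the plus strand. Its level was 146, 113 and 176 FPKM in PEF5, PEF7 and PEF8, and 224, 108 and 127 FPKM in piPSC5, piPSC7 and piPSC8. The groups overlapped, with the highest and the lowest value both among the piPSCs. The ratio of piPSC to PEF was 1.53 in line 5, 0.959 in line 7 and 0.719 in line 8, and with 8536 fragments or more per library these ratios differ beyond counting error. Over the 3 lines the difference was 0.03 ± 0.31 (SE) on the log2 scale (limma adjusted p = 0.949), and its sign turned with the scaling (-0.25 after rescaling to the median ratio).

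PEG10 did not pass the test. Of the 6 other tested genes listed in its cluster, 1 was called higher and 3 lower, against 20.2% and 16.7% of all genes tested. CASD1 (limma adjusted p = 0.0798) and DLX5 (limma adjusted p = 0.490) did not pass. SGCE, a sarcoglycan that starts 131 bp away on the opposite strand and is also paternally expressed, fell by 1.13 on the log2 scale (limma adjusted p = 0.00470). Its level was 19.6 to 26.3 FPKM in PEFs and 7.70 to 11.5 FPKM in piPSCs. PPP1R9A, a neuronal scaffold protein on the other side, rose by 1.06 on the log2 scale, from 0.262 to 0.754 FPKM in PEFs to 1.18 to 2.61 in piPSCs (limma adjusted p = 0.0218). TFPI2, a secreted protease inhibitor, fell by 5.06 on the log2 scale, from 24.3, 46.2 and 180 FPKM in PEF5, PEF7 and PEF8 to 0.316, 0.449 and 2.05 FPKM in the piPSC lines made from them (limma adjusted p = 0.00212). PON2, a lactonase, fell by 1.41 on the log2 scale (limma adjusted p = 0.0265).

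PLAGL1 encodes a zinc finger transcription factor, known as ZAC1, that is linked to growth arrest. It lies at chr1:21303994-21371067 on the plus strand. Its level was 2.54, 2.51 and 2.21 FPKM in PEF5, PEF7 and PEF8, and 4.31, 4.40 and 6.18 FPKM in piPSC5, piPSC7 and piPSC8. Every piPSC library was above every PEF library, and PEF lines differed little. The ratio of piPSC to PEF was 1.70 in line 5, 1.75 in line 7 and 2.80 in line 8. The difference of 0.79 ± 0.21 (SE) on the log2 scale was larger than the spread between lines (limma adjusted p = 0.0185) but under 2-fold. A significant difference of any size was found upward for 30.3% and downward for 21.5% of all genes tested. After rescaling to the median ratio it was 0.58 and no longer significant (limma adjusted p = 0.0648), and without both libraries of line 5, 7 or 8 its limma adjusted p was 0.1, 0.0718 and 0.0873. The table's PLAGL1 overlaps HYMAI, a non-coding gene on the other strand, by 237 bp, and HYMAI had 2 fragments in piPSC8 and 0 in the other libraries. SF3B5, the nearest tested gene before it, differed by 0.62 on the log2 scale (limma adjusted p = 0.0109), and LTV1, the nearest after it, rose by 1.24 (limma adjusted p = 0.00973).

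MEST, a hydrolase-like protein of the endoplasmic reticulum known as a marker of growing mesoderm, lies at chr18:18291103-18351202 on the minus strand. Its level was 0.337, 0.191 and 0.413 FPKM in PEF5, PEF7 and PEF8, and 1.41, 2.40 and 0.579 FPKM in piPSC5, piPSC7 and piPSC8. All levels were low, and the groups did not overlap. Among all genes tested, 37.3% had piPSCs above PEFs with no overlap and 26.8% had them under, and MEST and PLAGL1 were the tested members with the former and PHLDA2 and CDKN1C those with the latter. The ratio of piPSC to PEF was 4.18 in line 5, 12.6 in line 7 and 1.40 in line 8, where the exact 95% interval ran from 0.942 to 2.09. The difference was 0.84 ± 0.33 (SE) on the log2 scale (limma adjusted p = 0.0677), and without piPSC8 it was 1.13 and passed (limma adjusted p = 0.0179).

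The table's MEST overlaps COPG2, a coat protein gene on the other strand, by 41114 bp. The library kit is not stated to mark strand, so reads from these 2 genes may not be told apart there. COPG2 was at 5.22, 5.63 and 3.07 FPKM in PEF5, PEF7 and PEF8, and at 11.2, 11.2 and 8.18 FPKM in piPSC5, piPSC7 and piPSC8. It rose by 1.01 on the log2 scale (limma adjusted p = 0.0161), and its part in the MEST values was not tested. CEP41, the nearest tested gene after MEST, was at 2.75 to 3.90 FPKM in PEFs and 3.37 to 5.90 FPKM in piPSCs (limma adjusted p = 0.149).

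PEG3 and DLK1 were under the mean of 0.5 FPKM that the test required. PEG3 encodes a zinc finger protein and lies at chr6:61283952-61307765 on the minus strand. Its level was 1.18, 0.502 and 0.822 FPKM in PEF5, PEF7 and PEF8, and 0, 0.0730 and 0 FPKM in piPSC5, piPSC7 and piPSC8. The gene was low in PEFs and nearly silent in piPSCs, with 289 fragments over the PEF libraries and 6 over the piPSC libraries, all of them in piPSC7. The level was at least 40.8-fold lower in line 5, 6.88-fold lower in line 7 (exact 95% interval of the ratio 0.0513 to 0.336) and at least 20.8-fold lower in line 8, where the bounds take 3 fragments for a count of 0. Fragments pooled over the lines gave a 36.8-fold lower level (exact 95% interval 16.7 to 101, counting error only). In the fit without a filter on low values the difference was -0.82 ± 0.15 (SE) on the log2 scale (limma adjusted p = 0.00893), a scale on which genes near 1 FPKM can hardly reach 2-fold.

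The neighbours of PEG3 were far from it. ZFP28, 356752 bp before it, had 2.46, 2.11 and 2.30 FPKM in PEF5, PEF7 and PEF8 and 6.18, 4.68 and 0.723 FPKM in piPSC5, piPSC7 and piPSC8 (limma adjusted p = 0.623). It was above its PEF level in lines 5 and 7 and under it in line 8. AURKC, a kinase of germ cells 276908 bp after PEG3, was at 0.799 to 1.20 FPKM in PEFs and 0 to 0.497 FPKM in piPSCs (limma adjusted p = 0.0526).

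DLK1, a transmembrane protein related to the ligands of Notch, lies at chr7:121565855-121576725 on the plus strand and was at the limit of detection in all libraries. It had 1, 1 and 0 fragments in PEF5, PEF7 and PEF8, and 3, 0 and 0 in piPSC5, piPSC7 and piPSC8. A count of 0 allows up to 0.0405 FPKM in PEF8, 0.0516 FPKM in piPSC7 and 0.0557 FPKM in piPSC8, so no difference was detectable at this depth. MEG3_2, a 105 bp feature 82789 bp past it that the table names after the maternally expressed RNA of the cluster, had 9, 1 and 1 fragments in PEF5, PEF7 and PEF8 and 0 in each piPSC library (limma adjusted p = 0.0768). WDR25, on the other side, was at 3.30 to 4.73 FPKM in PEFs and 2.57 to 4.36 FPKM in piPSCs (limma adjusted p = 0.441).

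**Figure D3:**
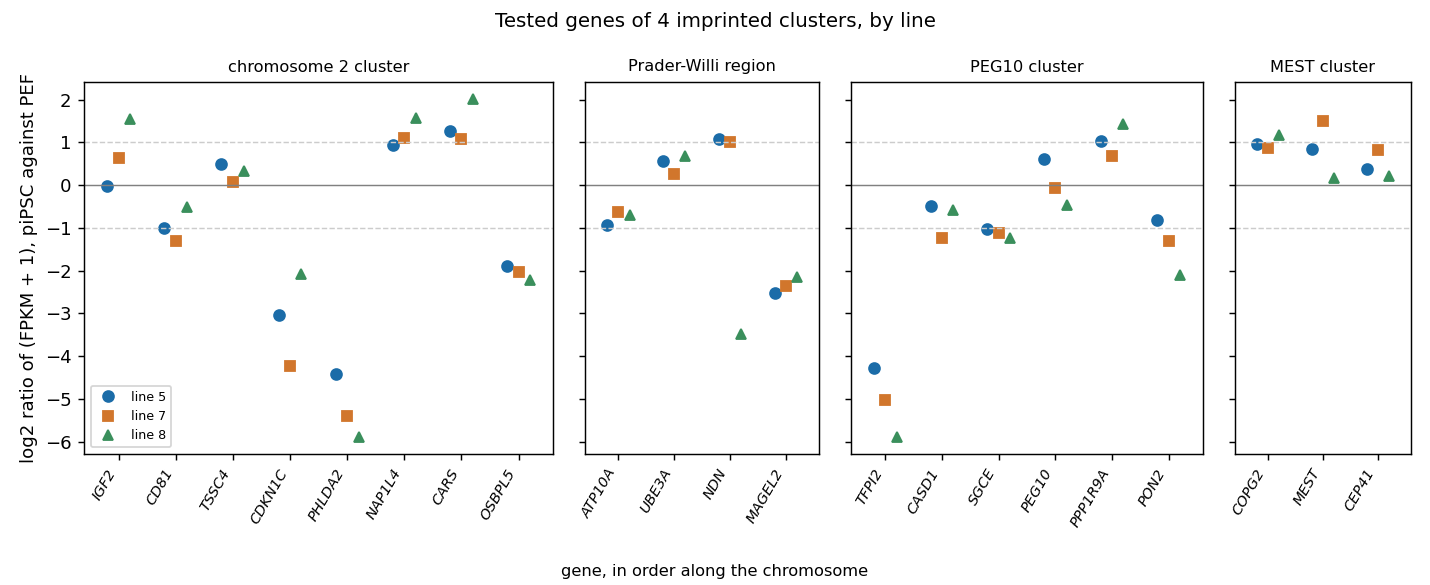
Log2 ratio of (FPKM + 1) between each piPSC line and its PEF line, in order along the chromosome, with dashed lines at 2-fold. Drawn are tested genes that are listed as imprinted in 4 clusters, without TSPAN32, DLX5 and H19_2. NDN is the gene with line 8 far under 0 and lines 5 and 7 above it, while the 3 symbols of PHLDA2, CDKN1C, MAGEL2, OSBPL5, SGCE and TFPI2 all lie under 0.

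Taken per line, the members divided differently. With a 2-fold limit on the ratio of (FPKM + 1), line 5 had 2 members higher (NDN and DIRAS3) and 3 lower (PHLDA2, CDKN1C and PEG3), where 15.5% of all 18007 genes were higher and 13.0% lower. Line 7 had 2 higher (DIRAS3 and MEST) and 2 lower (PHLDA2 and CDKN1C), against 17.9% and 12.0% of all genes, and NDN was just under the limit. Line 8 had 2 higher (IGF2 and PLAGL1) and 4 lower (NDN, DIRAS3, PHLDA2 and CDKN1C), against 16.9% and 17.1% of all genes. PHLDA2 and CDKN1C were the 2 members past the limit in the same direction in all 3 lines. With 0.1 added to FPKM in place of 1, PEG3 was also lower past the limit in all 3 lines.

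The order of the levels changed with reprogramming. FPKM is per length of gene, so levels can be set side by side. In PEFs, PEG10 and PHLDA2 led with means of 145 and 128 FPKM and overlapping ranges, NDN, CDKN1C and DIRAS3 followed at 24.2, 17.1 and 11.3 FPKM with each range overlapping the next, and PLAGL1 stood alone at 2.42 FPKM. PEG3, IGF2 and MEST were at 0.834, 0.542 and 0.314 FPKM with overlapping ranges, and DLK1 was last. In piPSCs, PEG10 led alone at a mean of 153 FPKM. NDN and DIRAS3 had means of 36.1 and 27.4 FPKM, but piPSC8 stretched their ranges down to 0.974 and 0.908 FPKM. Their ranges thus overlapped those of PLAGL1, at a mean of 4.96 FPKM, and of PHLDA2, IGF2 and MEST. PHLDA2, IGF2, MEST and CDKN1C lay between 2.39 and 0.723 FPKM with each range overlapping the next.

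Other imprinted genes were counted from a list taken from human and mouse knowledge, so that imprinting of each in the pig is not implied. Of 76 names listed, both CARS and its alias CARS1 among them, 49 were found by exact name and 35 were tested. Of these 35, 6 rose and 6 fell, where 20.2% of all genes tested were called higher and 16.7% lower, so these counts stand near the background. They had a median log2 difference of 0.19 against 0.20 over all genes tested. H19_2, MEG3_2 and the features of KCNQ1OT1 carry a suffix in their names and are not in these counts or this median. H19_2 was called higher, by 7.83 on the log2 scale (limma adjusted p = 0.000640), and MEG3_2 was not called (limma adjusted p = 0.0768). IMPACT, a regulator of the response to amino acid shortage, rose from 5.25 to 9.37 FPKM in PEFs to 17.4 to 24.0 FPKM in piPSCs (limma adjusted p = 0.00338), and GAB1, a signalling adaptor, rose by 1.24 on the log2 scale (limma adjusted p = 0.0138). The other counted genes that rose were NAP1L4, CARS, COPG2 and PPP1R9A. Under rescaling to the median ratio 1 of the 35 was called higher, and under rescaling to equal sums 3 were called higher and 10 lower. DCN, a proteoglycan of the fibroblast matrix, fell by 5.25 on the log2 scale, from 50.2, 98.8 and 519 FPKM in PEF5, PEF7 and PEF8 to 4.58, 1.65 and 2.27 FPKM in piPSC5, piPSC7 and piPSC8 (limma adjusted p = 0.00284). The other genes that fell were TFPI2, OSBPL5, MAGEL2, PON2 and SGCE. The 7 fibroblast markers fell as well, and their part in these decreases was not tested.

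Factors known to maintain imprints were more often higher than lower in piPSCs. Of 16 listed, 14 were in the table and 12 were tested, of which 5 rose and 0 fell by limma (8 higher and 0 lower at an unadjusted p under 0.05, and 0 lower with voom), with a median log2 difference of 0.71. Over all genes tested, 20.2% were called higher and 16.7% lower. The 5 became 3 without PEF7 and 3 without piPSC5. Among the genes tested and not called higher, EHMT2 and ARID4A had log2 differences under 0. UHRF1 rose by 2.75 ± 0.76 (SE) on the log2 scale, with 990, 34 and 90 fragments in PEF5, PEF7 and PEF8 and 2060, 1133 and 1051 fragments in piPSC5, piPSC7 and piPSC8 (limma adjusted p = 0.0226). DNMT1 rose by 1.96 (limma adjusted p = 0.00534), TRIM28 by 1.53 (limma adjusted p = 0.000675), SETDB1 by 1.54 (limma adjusted p = 0.00103) and SMCHD1, a chromatin protein known for X inactivation, by 1.16 (limma adjusted p = 0.0123), all on the log2 scale. ZFP57 itself had 6 to 9 fragments in PEFs and 9 to 17 in piPSCs and was not tested. DNMT3L was listed at 0 in the piPSC libraries and had 40 fragments in PEF8.

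For each tested member, the tested gene with the highest Pearson correlation of log2(FPKM + 1) over the 6 libraries was taken as a description of its course. GNA12, a G protein subunit, followed NDN (r = 0.995), with 40.5, 32.5 and 21.7 FPKM in PEF5, PEF7 and PEF8 and 69.3, 70.3 and 1.34 FPKM in piPSC5, piPSC7 and piPSC8. DIRAS3 was closest to ENSSSCG00000032389 (r = 0.984), a feature with at most 3 fragments in any library. PWWP2B followed PHLDA2 (r = 0.999) and KLHL29 followed CDKN1C (r = 0.998), and both were called lower. The nearest genes were LLGL1 to MEST (r = 0.998), STAC3 to PLAGL1 (r = 0.999), KIDINS220 to PEG10 (r = 0.987) and ARMC12 to IGF2 (r = 0.987). These are the highest of 12428 genes over 6 libraries that share depth and group.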

How the data were processed

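RNA-seq values of 3 PEF lines and the 3 piPSC lines made from them were analysed. For each gene the authors deposited an FPKM value, which the sequencing company had made from poly-A libraries read from both ends over 150 bp. The submitters' processing notes name HISAT2 2.1.0, HTSeq 0.6.0, Bowtie2 2.2.3 and Sscrofa11.1 with no role. The annotation release and the treatment of strand and of reads shared between genes are not given in the sources used here. Of 13955 symbols shared with the RefSeq annotation, 99.8% lie at overlapping positions.

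Multiplied by a library total and a whole length searched for each gene, the FPKM values of all 18007 genes came within 0.0002 fragments, or for large counts a share of 2e-08, of whole numbers, which were taken as fragments. In a simulation the exact fragments were recovered for 471 of 500 genes, so recovery is not exact for all genes, and low counts are the smallest whole numbers that match. Totals were 11010629 to 17836510 fragments. Ratios within a line carry exact 95% intervals (Clopper-Pearson on the share of fragments), and 3 fragments stand for a count of 0. Intervals and floors cover counting error only.

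Groups were compared with limma 3.58.1 (R 4.3.3, moderated with a mean-variance trend) on log2(FPKM + 1), two-sided and unpaired after the test the paper names, for 12428 genes with a mean of at least 0.5 FPKM, with Benjamini-Hochberg adjustment over all of them. Fold changes on this scale understate the change of low genes. Tested on simulated data for 12315 genes, the fit called 99 of 104 genes changed 4-fold, 34 of 92 genes changed 2-fold and 6 unchanged genes. The simulation gave every gene the same fixed dispersion and changed only genes above a minimum count. It did not take the spread between these lines, so its rates need not hold for the real data. An exact permutation test of 3 against 3 has 0.1 as its smallest p and was not run.

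The numbers pair the libraries, since a piPSC line comes from the PEF line that carries its number. Across genes, how far a library lay from its group mean correlated at 0.08 to 0.0946 for libraries of the same number and at -0.121 to 0.0553 for the others. A replicate block for the line was tried as an alternative, besides other pseudocounts, filters, scalings, voom on recovered fragments, and libraries or lines left out.

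The members, lists and rules were chosen with earlier results of these data known. Named are all 10 members, up to 6 genes called higher and 6 called lower with the largest change among other imprinted genes and among maintenance factors, the nearest tested gene on each side of a member within 500 kb, and the tested gene closest in course to each member. The other genes of the clusters (CD81, KCNQ1, KCNQ1OT1, CASD1, DLX5, ATP10A, MKRN3), ZFP57, DNMT3L, EHMT2 and ARID4A were picked later, with their values known. The other marker lists (trophoblast, primitive endoderm, neural, muscle, cartilage, keratinocyte, endothelial, immune, pigment) were summed, with some calls given, in the closing section. No protein sequence was printed, as none was used here. Sequences and annotation were read with Python 3.11.15, numpy 2.4.6, pandas 2.3.3 and scipy 1.17.1.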

Additional observations from a re-analysis of the deposited data

Results flagged for a closer look

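For 3 genes the piPSC to PEF ratio lay above 1 in some lines and under 1 in others. NDN had a ratio of 2.14 in line 5, 2.03 in line 7 and 0.0459 in line 8. DIRAS3 had a ratio of 3.84 in line 5, 8.87 in line 7 and 0.0498 in line 8. PEG10 had a ratio of 1.53 in line 5, 0.959 in line 7 and 0.719 in line 8. Each line has 1 library per state, so the difference between lines was not tested.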

How the results depend on the processing

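PHLDA2 (-5.83 to -4.91) and CDKN1C (-4.30 to -2.49) were called lower under all 18 alternatives, and the number of members called lower was 2 under each of them. With the line as a replicate block, 2462 genes were called higher and 2023 lower, against 2505 and 2070 without it, and no call of a member, of another imprinted gene count or of a maintenance factor count changed. The number of members called higher was 0, became 1 with voom, and ran from 0 to 3 when a library or line was left out (3 without piPSC8 and without line 8). NDN (-0.48) ran from -1.31 to 1.12 with a library or line left out and turned to 1.12 without piPSC8 and 1.03 without line 8. DIRAS3 (0.47) ran from -0.74 to 2.37 and turned to -0.06 without PEF7, -0.33 without piPSC5, -0.22 without piPSC7, -0.23 without line 5 and -0.74 without line 7. PEG10 (0.03) ran from -0.28 to 0.27 with a library or line left out and turned to -0.25 at the median ratio, -0.30 at equal sums, -0.14 without PEF7, -0.28 without piPSC5 and -0.27 without line 5. Other imprinted genes called higher went from 6 to 1 at the median ratio and 3 at equal sums, and ran from 3 to 6 with a library or line left out (3 without PEF8 and without line 5), while those called lower were 10 at equal sums and 4 to 7 with a library or line left out (4 without line 5). Maintenance factors called higher ran from 3 to 6 with a library or line left out (3 without PEF7 and without piPSC5). Over all genes, with a library or line left out, those called higher ran from 1752 to 2641 and those called lower from 1307 to 2075, both lowest without line 5. Under the other alternatives they ran up to 2947 higher (pseudocount 0.1) and 2815 lower (equal sums). Rescaling to the median ratio moved the share of higher calls from 54.8% to 42.6%, and to equal sums to 41.4%. Per line, members higher went from 2 to 0 in line 5, 1 in line 7 and 0 in line 8 at a 4-fold limit, to 1 in line 5 at the median ratio and to 4 in line 7 with a pseudocount of 0.1. Members lower went from 2 to 3 in line 7 and from 4 to 5 in line 8 with a pseudocount of 0.1, which added PEG3. They went from 3 to 2 in line 5 at a 4-fold limit. The cause of these shifts was not tested. MEST has no value at a mean of at least 1 FPKM, where it was not tested. Depth limits PEG3 and DLK1, and NDN and DIRAS3 in piPSC8 rest on 18 and 17 fragments.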

Other observations

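Markers of other cell types were summed in each library. Primitive endoderm markers summed to 50.9 to 85.5 FPKM in PEFs and 0.195 to 3.29 FPKM in piPSCs, with GATA4 and SOX17 at 0 in all piPSC libraries. The 4 genes summed were GATA4, GATA6, SOX17 and PDGFRA, and PDGFRA is not particular to that cell type. Of these, 2 were tested and 1 was called lower, and the share of each gene in the sum was not separated. Neural markers summed to 6.17 to 17.6 FPKM in PEFs and 53.4 to 76.7 FPKM in piPSCs, and 1 of the 3 tested was called higher. Trophoblast markers summed to 3.86 to 10.1 FPKM in PEFs and 0.0207 to 0.405 FPKM in piPSCs. Immune markers summed to 9.31 to 22.0 FPKM in PEFs and 0.261 to 0.551 FPKM in piPSCs. Endothelial markers summed to 0.5 to 2.57 FPKM in PEFs and 0.0316 to 0.215 FPKM in piPSCs. Cartilage markers summed to 0.528 to 4.54 FPKM in PEFs and 0.00877 to 0.196 FPKM in piPSCs. Muscle markers summed to 0.0678 to 0.481 FPKM in PEFs and 0.195 to 14.4 FPKM in piPSCs. Keratinocyte markers summed to 0.124 to 0.5 FPKM in PEFs and 0.190 to 3.85 FPKM in piPSCs. For both lists the groups overlapped. Pigment markers summed to 0.0498 to 0.227 FPKM in PEFs and 0.379 to 0.652 FPKM in piPSCs. No gene of the muscle, keratinocyte or pigment lists was called higher or lower.

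Among other imprinted genes that did not pass the test, SLC38A4, an amino acid transporter, had 28.1 FPKM in piPSC8 and at most 0.773 FPKM in the other libraries. WT1, a zinc finger transcription factor, had 19.6 FPKM in piPSC7, 17.5 FPKM in piPSC8 and 0.118 FPKM in piPSC5, against at most 0.159 FPKM in PEFs. Both were picked after their values were seen.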
